A study of Mus musculus with 2 samples.

Results

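Oligodendrocyte precursors were studied in single-nucleus RNA libraries of mouse hippocampus. They were chosen by their own counts of unique molecular identifiers (UMIs, each standing for 1 captured RNA molecule). A nucleus was taken with at least 1 UMI of Pdgfra, at least 8 UMIs over the 5 markers Pdgfra, Cspg4, Vcan, Lhfpl3 and Tnr, and at most 1 UMI each of Rbfox3, of Bnc2, of Mog with Mag, of Enpp6 with Gpr17 and Bmp4, and of Top2a with Mki67. This rule found 1009 of 39861 nuclei, 523 of 20265 in the AAV-STOP library and 486 of 19596 in the AAV-TAU library. The levels of these 14 genes chose the nuclei, so they are given as a description only.

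Oligodendrocyte precursors are dividing glial cells spread through the adult brain, from which myelinating oligodendrocytes arise. Pdgfra, the receptor for platelet-derived growth factor, keeps them in the precursor state, and Olig1, Olig2 and Sox10 are the transcription factors of the whole lineage. In the hippocampus they receive synaptic input from neurons through glutamate and GABA receptors, they carry potassium and sodium channels, and they lay down proteoglycans of the extracellular matrix. On differentiation they switch off these genes, pass through a short stage marked by Enpp6, Gpr17 and Bcas1, and then make the myelin proteins.

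Both groups were C57BL/6J mice that received an adeno-associated virus (AAV) in both brain ventricles at postnatal day 0 and gave hippocampi at 6 weeks of age. In AAV-STOP, the control, the virus carried a human MAPT (tau) transcript in which an early stop codon blocks translation, and in AAV-TAU it carried the full-length wild-type 2N4R human tau. The sources used here do not name the promoter of the vector or say which cells took it up. The hippocampi of 3 mice were pooled into 1 library per group. Neither a test nor a spread between mice can therefore be given, and a difference between the groups cannot be told apart from one between 2 libraries. Levels are in CPM, the UMIs of a gene per 1000000 UMIs of the precursors of a library. Their exact 95% Poisson intervals, and the intervals of ratios (AAV-TAU over AAV-STOP), cover counting error only. These intervals are too narrow for genes that vary between nuclei beyond counting. CPM values are compared between libraries or cell classes for 1 gene at a time, since they are not set per gene length.

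The libraries held 130252240 (AAV-STOP) and 109428807 (AAV-TAU) UMIs, with medians of 5750 and 5119 per nucleus. The precursors held 1978294 and 1726041 UMIs, with medians of 3250 and 3072 per nucleus and of 1817 and 1799.5 genes. The mitochondrial share of UMIs had medians of 0.201% (AAV-STOP) and 0.268% (AAV-TAU). Nuclei over 5% were left out, and 0 of these had the Pdgfra and marker UMIs that the rule asks for. The libraries shared 116 barcodes, none of them among the precursors. Human MAPT is not in the gene list, so the vector's transcript was not followed. Mouse Mapt, which neither vector alters by design, does not check the labels.

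The label was checked on genes that the rule had not used, and these were high in both libraries where precursors are known to have them. Ptprz1, a receptor phosphatase of precursors and astrocytes, stood at 2152 CPM in AAV-STOP and 2082 in AAV-TAU, against 118 and 104 CPM in mature oligodendrocytes. With every nucleus thinned to 1600 UMIs, 91.4% and 89.7% of precursors had a UMI of it (unthinned 96.7% and 95.7%), and 13.5% and 12% of mature oligodendrocytes. Sox6, a transcription factor that holds back maturation, stood at 1420.4 and 1485 CPM, against 27.4 and 39.7 CPM in mature oligodendrocytes and 22.6 and 22.8 CPM in neurons. Sox10 stood at 311 and 289.7 CPM, against 6.02 and 6.30 CPM in neurons. The comparison classes were drawn from the same libraries by rules on a few marker genes: 1323 and 1497 mature oligodendrocytes, 114 and 94 newly formed oligodendrocytes, 164 and 204 astrocytes, and 7792 and 5983 neurons, with AAV-STOP first.

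Levels along the lineage set the precursors apart from both later stages in each library. Cacng4, an auxiliary subunit of AMPA receptors, stood at 306 and 355 CPM in precursors, at 64.4 and 63.0 CPM in newly formed and at 10.6 and 6.66 CPM in mature oligodendrocytes. Ntn1, the secreted guidance cue netrin, stood at 125 and 169.8 CPM in precursors and at 7.36 and 14.5 CPM in newly formed oligodendrocytes. Bcas1 ran the other way, from 306 and 359 CPM in precursors to 3929.5 and 3969 CPM in newly formed oligodendrocytes. Mbp, the gene of myelin basic protein, stood at 113 and 150.1 CPM in precursors and at 6382 and 5726 CPM in mature oligodendrocytes, and astrocytes and neurons also showed 70.1 to 157 CPM of it. Mapt, the endogenous tau gene, was lower in precursors (223 and 239 CPM) than in newly formed (975 and 1010.4) or mature oligodendrocytes (1226 and 1162).

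Not every nucleus that met the rule had this make-up. A nucleus with many UMIs can reach 8 marker UMIs at a low density, and 73 AAV-STOP and 65 AAV-TAU nuclei had fewer than 5 marker UMIs per 1000 UMIs. Their median depths were 6621 and 5740 UMIs, and they held 26.6% and 25.1% of all precursor UMIs. In these sparse nuclei Sox6 stood at 363 and 394 CPM, against 1804 and 1852 CPM in the 450 and 421 dense ones. Grin2b, a neuronal NMDA receptor subunit, stood at 1688 and 1618 CPM in the sparse nuclei and at 316 and 256 CPM in the dense ones. At the threshold of the rule, the 23 and 21 nuclei with 8 to 10 marker UMIs had Ptprz1 at 241 and 194 CPM. The 46 and 34 nuclei with 5 to 7 marker UMIs, which missed it, had 280.1 and 270.2 CPM. Neuronal RNA thus stood in the sparse nuclei of both libraries, and results are given below with all members and, where it matters, with the dense nuclei alone, a split made after seeing the data.

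**Figure D1:**
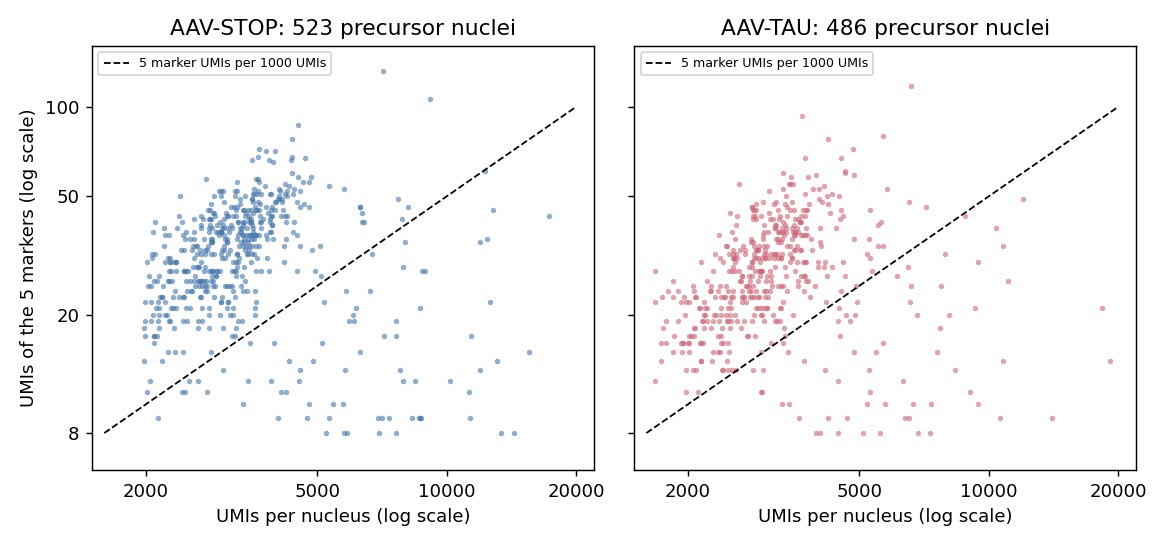
Each point is 1 precursor nucleus, with its total UMIs on the x axis and its UMIs of the 5 markers on the y axis, both on log scales, AAV-STOP at left and AAV-TAU at right. The nuclei under the dashed line (5 marker UMIs per 1000 UMIs) number 73 and 65 and reach to the greatest depths, while most members lie above it in both panels.

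The members varied among themselves beyond counting noise, slightly in the typical gene and strongly in a minority of genes. For 3611 genes with 200 or more UMIs, the variance over nuclei was divided by the variance that counting at each nucleus's depth gives. This ratio was above 2 in both libraries for 289 genes (8.0%), and for 50 genes (1.38%) in the dense nuclei. Kcnip4, a neuronal potassium channel partner, had the highest ratios, 51.1 in AAV-STOP and 54.4 in AAV-TAU, which were 18.2 and 3.33 in the dense nuclei. Meg3, a long non-coding RNA of neurons, had 35.2 and 35.7, and 2.96 and 1.38 in the dense nuclei. The others of the leading 12 were Malat1, Tenm2, Cntnap2, Galntl6, Epha6, Zfp804b, Celf2, Snhg11, Cntn5 and Adarb2. Malat1, a nuclear non-coding RNA of all cells, still had 14.1 and 9.37 in the dense nuclei. Ptprz1, with 5.51 and 4.86, and Sox6, with 4.53 and 3.76, were also above 2. The leading 12 of the dense nuclei kept 5 of these genes and held Gpc5, Slc1a2, Camk1d, Etl4 and Cmss1 among the others, named after their values were seen.

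Precursors made up 2.58% of AAV-STOP nuclei (2.37 to 2.81, exact 95% Clopper-Pearson interval), while the AAV-TAU share was 2.48% (2.27 to 2.71). The ratio of the shares was 0.961 (0.848 to 1.09), and it was 0.999 (0.879 to 1.13) over nuclei with 2000 or more UMIs, so no difference in share was detectable at this depth. Among nuclei with at most 1 Rbfox3 UMI, which leaves out the neuron class, the share was 5.88% of 8888 and 4.69% of 10364, a ratio of 0.797 (0.703 to 0.903). These denominators also hold nuclei outside the drawn classes, whose cell types were not determined and may include neurons. The shares of mature oligodendrocytes (6.53% and 7.64%) and astrocytes (0.809% and 1.04%) were higher in AAV-TAU, and that of neurons was lower (38.5% and 30.5%). There were 39.5 precursors per 100 mature oligodendrocytes in AAV-STOP and 32.5 in AAV-TAU.

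Most genes of the precursors stood within 1.5-fold in the 2 libraries. Of 6424 genes with 100 or more UMIs over both libraries, and not used by the rule, 238 were at least 1.5-fold higher in AAV-TAU (3.7%) and 53 at least 1.5-fold lower (0.825%). The median log2 ratio was 0.03, and 55.7% of the genes were higher in AAV-TAU. Of those higher, 71 spanned under 5 kb of the genome and 8 over 100 kb, while of those lower 0 spanned under 5 kb and 26 over 100 kb. In the dense nuclei alone 5239 genes were measured, of which 232 were higher (4.43%) and 60 lower (1.15%). Of the 238 higher genes, 193 were past the fold and 238 on the same side in the dense nuclei, as were 38 and 48 of the 53 lower ones. The dense nuclei are part of the same members and hold most of their UMIs, so this overlap was largely fixed in advance. In mature oligodendrocytes 217 of the 238 and 38 of the 53 were on the same side, where 3497 of the 6424 genes were higher. The ratio's interval lay above 1 for 647 genes (10.1%) and below 1 for 453 (7.05%).

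The identity genes of the precursors were, as a group, level. Of 24 on the list 22 were measured, with 11 higher, 11 lower and a median log2 ratio of -0.01. Over all measured genes 55.7% were higher and the median was 0.03. Ptprz1 had a ratio of 0.967 (0.925 to 1.01), Sox6 of 1.05 (0.991 to 1.10) and Xylt1, which starts the sugar chains of proteoglycans, of 1.03 (0.981 to 1.09). Sox10 had 0.930 (0.825 to 1.05) and Olig2 1.18 (0.963 to 1.45). Olig1 was the 1 member past the fold, where 3.7% of all measured genes were past it upward and 0.825% downward. It stood at 78.4 CPM (66.5 to 91.7) in AAV-STOP and 119 CPM (103 to 136) in AAV-TAU, a ratio of 1.52 (1.22 to 1.88). Its intervals did not overlap, and the ratio was 1.46 (1.17 to 1.82) in the dense nuclei and 1.12 (0.974 to 1.29) in mature oligodendrocytes. Olig1 lies on chromosome 16 (91269772 to 91271933, mm10). Nkx2-2, another transcription factor of the lineage, went from 45.0 to 31.9 CPM, a ratio of 0.708 (0.497 to 1.00) at 89 and 55 UMIs.

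Among surface and adhesion genes of the identity list, Pcdh15, a protocadherin, stood at 2550.2 CPM in AAV-STOP and 2252 CPM in AAV-TAU, a ratio of 0.883 (0.847 to 0.921). Opcml, a cell adhesion protein, stood at 3975 and 4359 CPM, a ratio of 1.10 (1.06 to 1.13) in all members and 1.03 (0.992 to 1.07) in the dense ones. Sema3d, a secreted guidance cue, was lower in AAV-TAU, at 274 and 217 CPM, and Cacng4 was higher, with a ratio of 1.16 (1.03 to 1.3). The 5 markers of the rule, given as a description, stood at 601 and 615 CPM (Pdgfra), 190.1 and 206 (Cspg4, the proteoglycan NG2), 863 and 788 (Vcan, versican), 3787 and 3306 (Lhfpl3) and 3306 and 3229 (Tnr, tenascin R). Nuclei held a median of 33 marker UMIs (AAV-STOP) and 27 (AAV-TAU).

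**Figure D2:**
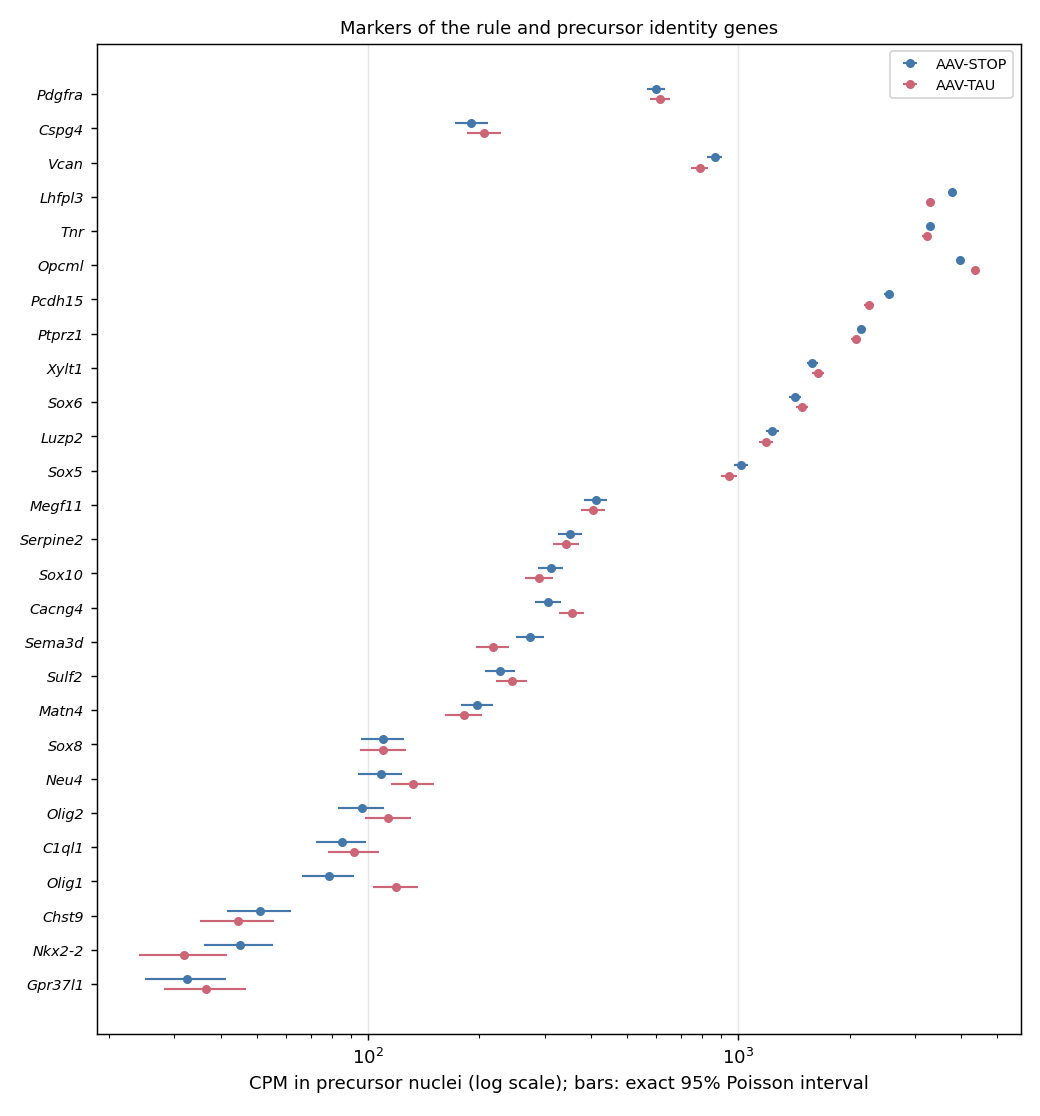
Points are CPM in the precursors of each library on a log scale, with exact 95% Poisson intervals as bars, for the 5 markers of the rule (top) and the 22 measured identity genes. The libraries lie close together for nearly all genes, and Olig1 is the identity gene past 1.5-fold, at 78.4 CPM in AAV-STOP and 119 CPM in AAV-TAU.

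Genes that are low in mature oligodendrocytes, astrocytes and neurons of these libraries were also looked at. By a rule set after seeing the data, 57 genes with 200 or more UMIs had at least 5 times the CPM of mature oligodendrocytes, of astrocytes and of neurons. Newly formed oligodendrocytes did not enter this rule, and 8 of the 57 were higher there than in precursors, such as Ppfibp1, named after its values were seen, at 1396 CPM against 402 and 398 in the AAV-STOP and AAV-TAU precursors. Of the 57, 25 were higher and 32 lower in AAV-TAU, where 55.7% of all measured genes were higher. The median log2 ratio of the 57 was -0.02. Past the fold were 0 upward and 1 (1.75%) downward, against 3.7% and 0.825% of all measured genes, which needed 100 or more UMIs. Scel, the gene of sciellin, was that gene. It stood at 72.3 CPM (60.9 to 85.2) in AAV-STOP and 41.7 CPM (32.6 to 52.5) in AAV-TAU, a ratio of 0.577 (0.429 to 0.771). AAV-STOP was the higher library and the intervals did not overlap. The ratio was 0.542 (0.399 to 0.730) in the dense nuclei, and mature oligodendrocytes, astrocytes and neurons had 0 to 2.21 CPM of it, and newly formed oligodendrocytes 23.9 and 24.2 CPM. At 1600 UMIs 11.1% of AAV-STOP and 6.38% of AAV-TAU precursors had a Scel UMI (unthinned 20.1% and 12.6%), against 0.227% and 0.0668% of mature oligodendrocytes. Scel lies on chromosome 14 (103513342 to 103612797, mm10).

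Kcnip1, which binds Kv4 potassium channels, stood at 383 CPM in AAV-STOP and 279 CPM in AAV-TAU, a ratio of 0.727 (0.647 to 0.816), with 44.7% and 32.5% of nuclei positive at 1600 UMIs (unthinned 66.9% and 54.7%). The share in mature oligodendrocytes was 1.81% and 2.14%. Stk32a, a kinase, went from 349 to 255 CPM and Lama4, a laminin chain, from 66.2 to 48.1 CPM, both named after their values were seen. On the other side, Ntn1 stood at 125 CPM in AAV-STOP and 169.8 CPM in AAV-TAU, a ratio of 1.36 (1.14 to 1.62) and of 1.31 (1.10 to 1.56) in the dense nuclei. Traf4, also named after its values were seen, stood at 62.7 and 88.1 CPM, a ratio of 1.40 (1.10 to 1.80). In this group of 57, the interval of the ratio lay above 1 for 6 genes (10.5%) and below 1 for 12 (21.1%), against 10.1% and 7.05% of all measured genes. The 57 needed 200 or more UMIs and all measured genes 100, so the shares are not matched for counts. The 57 also held 28 genes spanning over 100 kb, against 1822 of the 6422 measured genes with a span. The part of either in these shares was not tested.

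Growth factor signalling held 1 gene past the fold. Of 20 measured genes of the list 9 were higher and 11 lower, with a median log2 ratio of -0.03. Of all measured genes 55.7% were higher, with 3.7% past the fold upward and 0.825% downward. Nrg1, the gene of neuregulin, a ligand of ErbB receptors, stood at 747 CPM (709 to 786) in AAV-STOP and 454 CPM (423 to 487) in AAV-TAU. Its ratio was 0.608 (0.557 to 0.664), and 0.589 (0.524 to 0.662) in the dense nuclei, with 44.9% and 35.2% of nuclei positive at 1600 UMIs (unthinned 59.5% and 50.4%). In mature oligodendrocytes, where 9.15% and 6.68% were positive, the ratio was 0.811 (0.735 to 0.896), and in neurons it was 0.941 (0.929 to 0.954). The 10 nuclei with most Nrg1 UMIs held 29.9% of them in AAV-STOP and 28.4% in AAV-TAU. Nrg1 spans chromosome 8 from 31814551 to 32884029 (mm10). Its receptor Erbb4, named after its values were seen, had a ratio of 0.980 (0.938 to 1.02), and the neurotrophin receptors Ntrk2 and Ntrk3 had ratios of 0.849 (0.774 to 0.932) and 0.849 (0.781 to 0.923).

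Cell cycle genes were mostly below the limit of 100 UMIs, with 5 of 22 measured. The rule left out nuclei with 2 or more UMIs of Top2a and Mki67, and 12 AAV-STOP and 9 AAV-TAU members had 1 such UMI. Ccnd1, the gene of cyclin D1, stood at 59.6 and 85.7 CPM, a ratio of 1.44 (1.12 to 1.85), and Cdk6 at 28.8 and 27.2 CPM.

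Matrix genes, some of which precursors use to build the proteoglycan coat around neurons, had a median log2 ratio of 0.08, against 0.03 over all measured genes. Of 15 measured 11 were higher and 4 lower, with 1 past the fold, where 55.7% of all measured genes were higher and 3.7% past the fold upward. Cspg5, the proteoglycan neuroglycan C, stood at 353 CPM in AAV-STOP and 427 CPM in AAV-TAU, a ratio of 1.21 (1.09 to 1.34). Bcan, brevican, stood at 206 and 218 CPM, and Gpc5, a glypican, at 2317 and 2192 CPM. Dcn, decorin, was the gene past the fold, at 28.8 and 44.0 CPM. Whether its RNA came from the precursors or from other cells was not tested. Ncan, neurocan, stood at 56.1 and 44.6 CPM, with a ratio of 0.795 (0.587 to 1.07).

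Signalling pathways that guide the fate of precursors were near the median of all genes. The Notch list had 5 of 9 genes higher and a median log2 ratio of 0.02, the Wnt list 9 of 13 and 0.07, and the BMP and TGF-beta list 8 of 13 and 0.03, with 0 past the fold in any. Of all measured genes 55.7% were higher, with 3.7% past the fold upward and 0.825% downward. Notch1, the receptor, stood at 42.5 and 46.9 CPM. Znrf3, which removes Wnt receptors from the surface, had the lowest ratio of the 3 lists, 0.755 (0.588 to 0.966), and Rbpj, the nuclear partner of Notch, the highest, 1.29 (0.970 to 1.73).

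Genes of differentiation gave no common direction, while myelin genes stood higher in AAV-TAU. Of 12 measured differentiation genes 6 were higher and 6 lower, with a median log2 ratio of 0.00. Tcf7l2, a transcription factor of the newly formed stage, had a ratio of 1.22 (1.00 to 1.49) and Bcas1 one of 1.17 (1.04 to 1.31). Among the brakes on differentiation 8 of 11 were higher, with a median of 0.06. All 9 measured myelin genes were higher, 2 of them past the fold, where 55.7% of all measured genes were higher and 3.7% past the fold upward. Their median log2 ratio was 0.41, which was 0.27 in the dense nuclei and -0.03 in mature oligodendrocytes. Cnp, a myelin enzyme, stood at 37.9 and 73.6 CPM, Cryab, a small heat shock protein of myelin, at 23.3 and 41.1 CPM, and Mal, a myelin membrane protein, at 155 and 221 CPM. The AAV-TAU value was the higher in each. The median of the myelin list was 0.08 in astrocytes and 0.08 in neurons. The share of mature oligodendrocytes among all nuclei was also higher in AAV-TAU, and its part in these levels was not tested.

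Genes by which precursors sense and contact neurons tended to lower levels in AAV-TAU, with few past the fold. Of 27 synaptic adhesion genes 5 were higher and 22 lower (3 past the fold, median log2 ratio -0.16). AMPA and kainate receptor genes were 4 higher and 15 lower (median -0.08), sodium and calcium channels 2 and 17 (-0.11), potassium channels 7 and 17 (-0.15), and guidance genes 7 and 19 (-0.10). In mature oligodendrocytes the medians of the 5 lists were -0.19, -0.15, -0.12, -0.09 and -0.15, in the same order. Over all measured genes 55.7% were higher and 0.825% past the fold downward. Among the 1822 measured genes over 100 kb, 35.4% were higher and the median was -0.07. Gria2, the AMPA receptor subunit that blocks calcium entry, stood at 1425 and 1236 CPM, a ratio of 0.867 (0.819 to 0.918). Grid1, a delta receptor, had a ratio of 0.868 (0.805 to 0.935). Kcnq5, a slow potassium channel, had a ratio of 0.756 (0.677 to 0.844), and 0.786 (0.686 to 0.900) in the dense nuclei. Epha7, an ephrin receptor, had a ratio of 0.719 (0.609 to 0.847), and 0.783 (0.587 to 1.04) in the dense nuclei.

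NMDA and metabotropic glutamate receptors depended on which nuclei were counted. Over all members 4 were higher and 5 lower, with a median log2 ratio of -0.19, and in the dense nuclei 5 of 9 were higher with a median of 0.08. For the counts in this paragraph, 55.7% of all measured genes were higher over all members. Grm7, a presynaptic glutamate receptor, had a ratio of 0.765 (0.708 to 0.825) in all members and 0.786 (0.708 to 0.871) in the dense ones. GABA and other transmitter receptors had 8 higher and 13 lower (median -0.08), with Gabrb2 at 247 and 189 CPM and Gabra2 at 233 and 181 CPM. P2rx7, an ATP-gated channel, was the one with the highest ratio, 1.42 (1.08 to 1.87).

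Several of the lowest ratios rested on few nuclei. Cntn5, an adhesion protein of neurons, stood at 379 CPM in AAV-STOP and 143 CPM in AAV-TAU, a ratio of 0.378 (0.326 to 0.437). The 10 nuclei with most UMIs held 58.2% and 55.1% of them, and in the dense nuclei the levels were 60.6 and 39.5 CPM. Without the 42 and 34 nuclei over 2 times the median depth its log2 ratio was 0.10. Grm8 (75.8 and 33.0 CPM) and Htr2c (43.5 and 18.0 CPM), receptors of neurons, each stood at 14.5 and 15.5 CPM in the dense nuclei. Htr2c is also among the choroid plexus markers. Ptprd, a receptor phosphatase at synapses, stood at 1721 and 1122 CPM, but 1 AAV-STOP nucleus held 237 of its UMIs, and the ratio was 0.808 (0.741 to 0.881) in the dense nuclei. Galnt18, Fstl4, Lingo2, Cntnap5a, Fras1 and Glis3 also had from 33.1% to 59.7% of their UMIs in 10 nuclei of each library. Of these, Lingo2 kept a ratio of 0.562 (0.447 to 0.704) and Galnt18 one of 0.586 (0.383 to 0.883) in the dense nuclei.

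Zbtb16 and Ankrd26 were spread over more nuclei. Zbtb16, a zinc finger repressor that responds to glucocorticoids, stood at 134 CPM (119 to 152) in AAV-STOP and 84.0 CPM (70.9 to 98.8) in AAV-TAU, a ratio of 0.625 (0.507 to 0.768). The ratio was 0.436 (0.317 to 0.593) in the dense nuclei, 0.438 (0.398 to 0.481) in mature oligodendrocytes and 0.891 (0.869 to 0.914) in neurons. At 1600 UMIs 17.2% and 10.1% of precursors (unthinned 31.7% and 20.2%) and 40.7% and 19.5% of mature oligodendrocytes were positive. The glucocorticoid targets had no common side: of 7 measured 3 were higher and 4 lower, where 55.7% of all measured genes were higher. Sgk1 had a ratio of 1.04 (0.890 to 1.22). Errfi1 was past the fold upward at 36.4 and 55.6 CPM, as were 3.7% of all measured genes. Ankrd26 stood at 64.7 and 41.7 CPM, a ratio of 0.645 (0.476 to 0.867) and of 0.602 (0.423 to 0.848) in the dense nuclei.

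**Figure D3:**
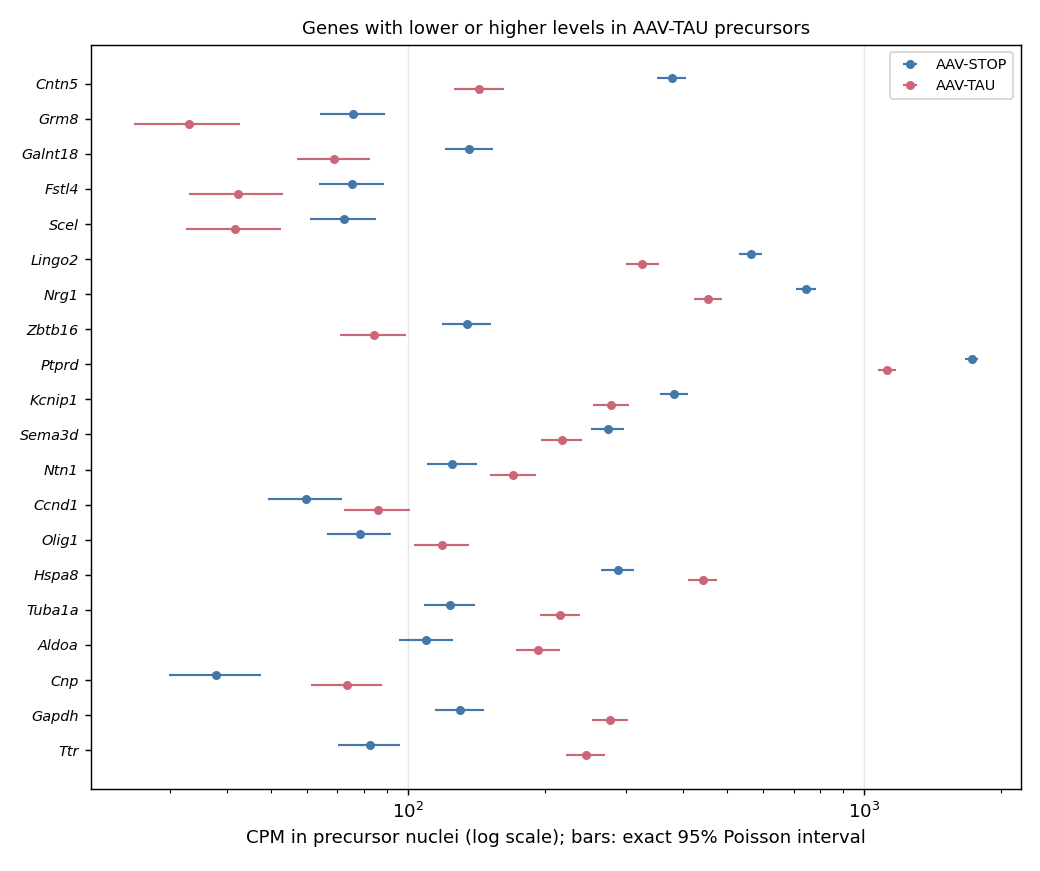
Points are CPM in the precursors of each library on a log scale with exact 95% Poisson intervals, for 20 genes described in the text. Genes from Cntn5 to Sema3d are lower in AAV-TAU and those from Ntn1 to Ttr higher, with Nrg1 at 747 and 454 CPM and Gapdh at 129.9 and 277 CPM.

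The highest ratios were mostly of short, widely expressed genes. Gapdh, an enzyme of glycolysis, stood at 129.9 CPM in AAV-STOP and 277 CPM in AAV-TAU, a ratio of 2.13 (1.83 to 2.49). Nuclei positive at 1600 UMIs were 20.8% and 40.1% (unthinned 40.3% and 61.1%). AAV-TAU was likewise higher in mature oligodendrocytes, where the ratio was 1.90 (1.74 to 2.08), and in neurons, where it was 1.65 (1.59 to 1.71). Aldoa, also of glycolysis, stood at 109.7 and 193 CPM, a ratio of 1.76 (1.48 to 2.10), and 1.66 (1.50 to 1.85) in mature oligodendrocytes. Elob, Pdap1, Myl6, Sub1, Dynll2, Tceal3 and Ywhah had ratios from 1.72 to 1.88. Ttr, the carrier protein made by choroid plexus, had the highest ratio of the genes with 200 or more UMIs that were ranked, 2.97 (2.48 to 3.59), but 1 AAV-TAU nucleus held 199 of its 423 UMIs and 24.1% and 28.8% of nuclei were positive. Nrgn, which is abundant in neurons, had a ratio of 1.50 (1.34 to 1.68).

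Genes for the respiratory chain, cytosolic ribosomes and chaperones were higher in AAV-TAU almost throughout. All 27 measured nuclear respiratory chain genes were higher, 14 past the fold, with a median log2 ratio of 0.59, and 0.63 in mature oligodendrocytes, 0.42 in astrocytes and 0.41 in neurons. Over all measured genes 55.7% were higher and 3.7% past the fold, and among those spanning under 5 kb 89.4% were higher. Uqcrb, of complex III, stood at 27.8 and 53.9 CPM, and Cox5a, of complex IV, at 64.2 and 106 CPM. Of 32 ribosomal protein genes 31 were higher, 7 past the fold (median 0.44, and 0.52 in mature oligodendrocytes). Of 14 heat shock genes 13 were higher, 4 past the fold (median 0.47, and 0.36 in mature oligodendrocytes), with the 1 lower gene being Hsph1, at 117 and 113 CPM. Hspa8, the constitutive HSP70, stood at 288 and 443 CPM, a ratio of 1.54 (1.38 to 1.72), and 1.48 (1.39 to 1.58) in mature oligodendrocytes. Hspd1 and Hspe1, the mitochondrial chaperonin pair, stood at 51.1 and 79.4 CPM and at 34.9 and 57.9 CPM. The unfolded protein response of the endoplasmic reticulum was near level, with 9 of 16 genes higher and a median of 0.04.

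The promoters of the heat shock list were read for the heat shock element, the site of the transcription factor HSF1. RefSeq windows (GRCm38.p6) from 250 bases before to 50 after the start were used. The letters searched were GAANNTTCNNGAA and its reverse complement TTCNNGAANNTTC, so both strands are covered, and overlapping matches were allowed. Of the 14 measured genes, 10 had a window, while Hspa8, Hsp90aa1, Hsp90ab1 and St13 had none. Of the 10, 4 (40%) held a match, against 179 of 27025 genes with a window (0.662%). The list was chosen as heat shock genes, so a higher share was to be foreseen and tells nothing about these libraries. The stretches below show each match in capitals, 5′ to 3′ on the strand of the gene. Hspd1 and Hspe1 lie head to head and share the same match.
Hspe1 (chr1:55088053-55088082, plus strand): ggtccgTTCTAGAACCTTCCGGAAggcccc
Chordc1 (chr9:18292259-18292288, plus strand): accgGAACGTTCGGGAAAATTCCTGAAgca
Hsph1 (chr5:149636280-149636309, minus strand): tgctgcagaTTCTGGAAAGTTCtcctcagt
The genes with a match had ratios of 1.66 (Hspe1), 1.55 (Hspd1), 1.25 (Chordc1, a co-chaperone) and 0.968 (Hsph1). Genes whose window held none, such as Dnaja1 (1.55) and Stip1 (1.47), had ratios in the same range. A match describes the letters alone and is no measure of binding.

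Lysosomal and stress-linked genes were higher in part. For the counts in this paragraph, 55.7% of all measured genes were higher and 3.7% past the fold upward. Among genes spanning under 5 kb 89.4% were higher. Of 17 lysosome and endocytosis genes 13 were higher, with a median log2 ratio of 0.24, against 0.08 in mature oligodendrocytes. Psap, the prosaposin precursor of lysosomal activators, stood at 241 and 283 CPM, a ratio of 1.17 (1.03 to 1.33). Clu, the chaperone clusterin, was past the fold, at 41.4 CPM in AAV-STOP and 65.5 CPM in AAV-TAU, a ratio of 1.58 (1.18 to 2.12). Clu is also on the list of genes of disease-associated oligodendroglia, of which 8 of 19 were measured, 6 of them higher. In the cholesterol synthesis list 7 of 9 genes were higher (median 0.15), and Insig1, a regulator of the pathway, was past the fold at 22.7 and 35.9 CPM. All 4 measured immediate early genes were higher (median 0.30), with Jun past the fold at 33.4 and 52.1 CPM.

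All 7 measured tubulin genes were higher in AAV-TAU, with ratios from 1.2 to 1.75. They are part of the microtubule and tau list of 36 genes, of which 24 were higher and 12 lower (median log2 ratio 0.12, and 0.15 in mature oligodendrocytes). Of all measured genes 55.7% were higher, and of those spanning under 5 kb 89.4%. Tuba1a, an alpha tubulin, stood at 123 and 216 CPM, a ratio of 1.75 (1.48 to 2.06), and 1.64 (1.49 to 1.80) in mature oligodendrocytes. Tubb4a, a beta tubulin of oligodendrocytes, stood at 45.0 and 71.8 CPM, and Cdk5r1, the activator of the tau kinase Cdk5, at 31.3 and 52.1 CPM. Mapt stood at 223 CPM (203 to 245) and 239 CPM (217 to 264), a ratio of 1.07 (0.934 to 1.23), so its intervals overlapped. Near-identical tubulin and ribosomal protein genes share sequence, so their values are uncertain to the extent that the counting split reads among copies.

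**Figure D4:**
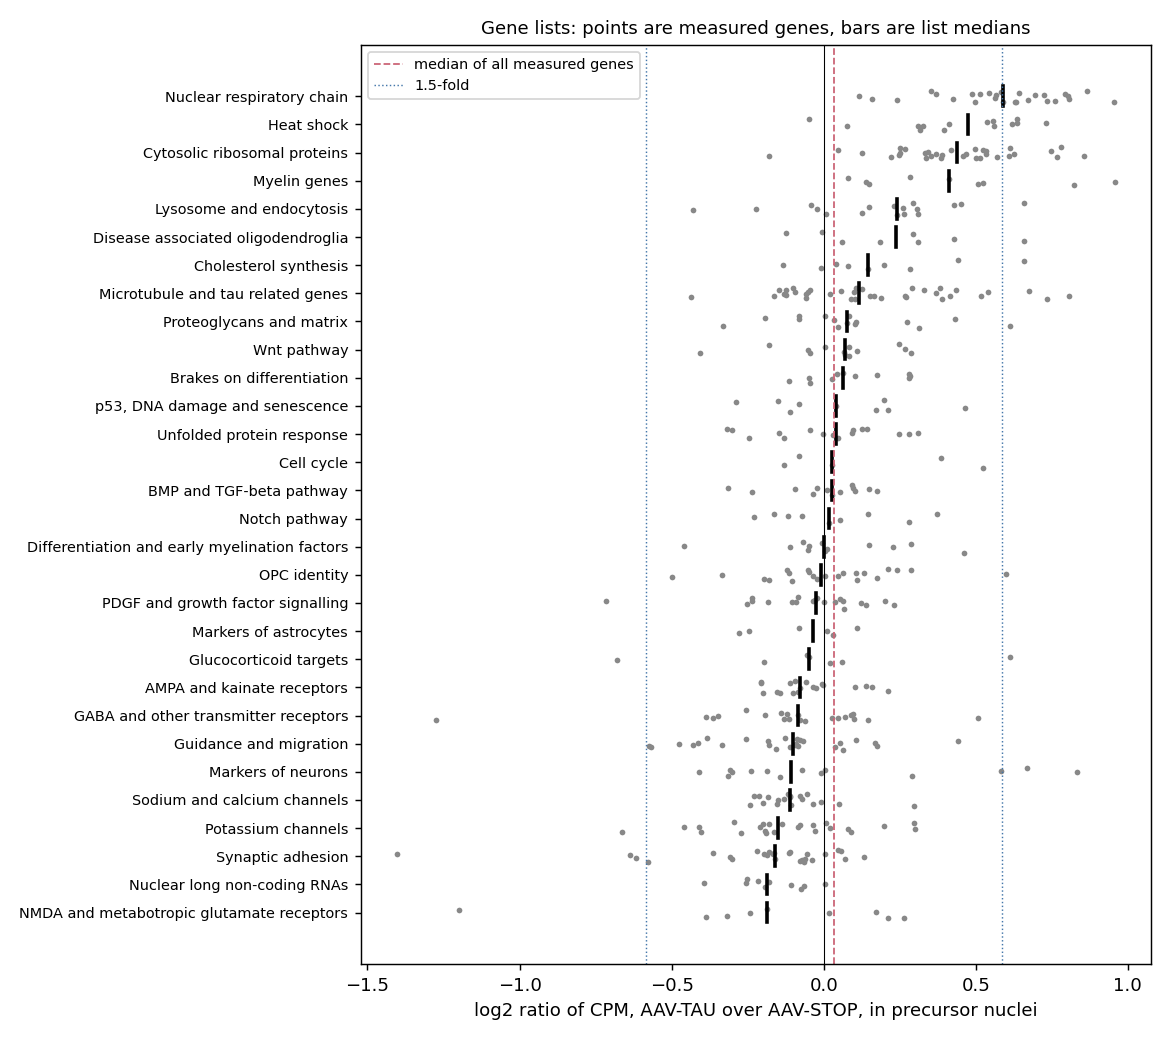
Each grey point is the log2 ratio (AAV-TAU over AAV-STOP) of 1 measured gene in the precursors, grouped by gene list, and each black bar a list median. The dashed red line is the median of all measured genes (0.03) and the dotted lines mark 1.5-fold; the respiratory chain list lies highest (0.59) and the identity list near 0.

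The ratio went with the genomic span of genes. For the 274 measured genes under 5 kb the log2 ratio had a median of 0.42, with 89.4% of them higher in AAV-TAU, and the 1822 genes over 100 kb had a median of -0.07. Genes under 5 kb took 3.36% of the AAV-STOP precursors' UMIs and 4.28% of the AAV-TAU ones. The same medians were 0.46 and -0.08 in mature oligodendrocytes, 0.40 and -0.12 in newly formed oligodendrocytes, 0.32 and -0.04 in astrocytes and 0.34 and -0.03 in neurons. Higher levels of short genes in AAV-TAU were thus seen in all 5 cell classes, and whether the ratios differ between classes was not tested. The part of gene span, of RNA from outside the nuclei and of RNA quality in the lists above was not tested.

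**Figure D5:**
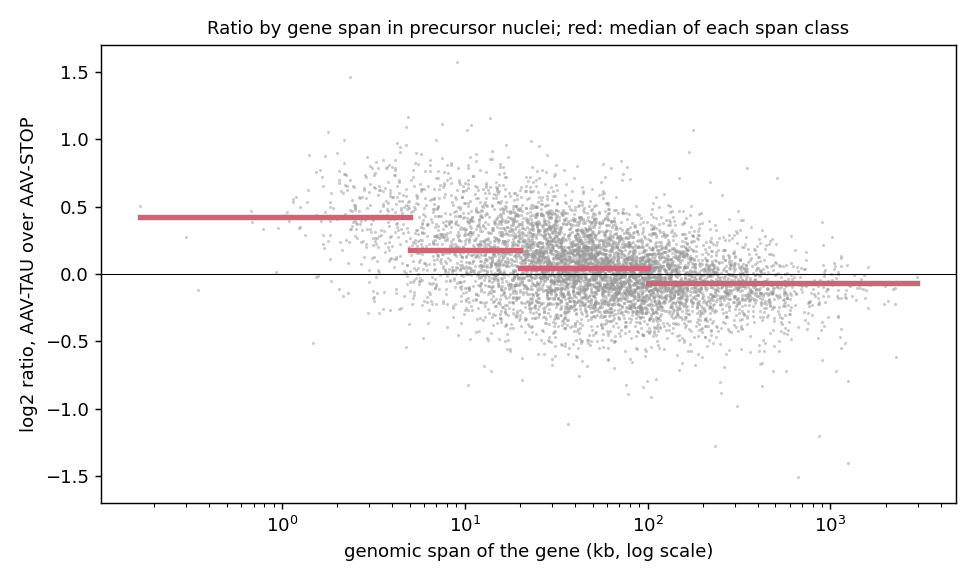
Each point is 1 measured gene in the precursors, with its genomic span on the x axis (kb, log scale) and its log2 ratio (AAV-TAU over AAV-STOP) on the y axis. The red bars are medians by span class and step down from 0.42 under 5 kb to -0.07 over 100 kb.

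Markers of other cell types were present in the precursors of both libraries. The 15 neuronal markers summed to 11123 CPM in AAV-STOP and 10400.1 CPM in AAV-TAU (6917 and 6764 in the dense nuclei). The 11 astrocyte markers summed to 3406 and 3249 CPM, some of which, such as Gpc5, are high in precursors too. The 12 microglial markers summed to 256 and 349.9 CPM, the 15 vascular and meningeal markers to 57.6 and 73.6 CPM and the 5 choroid plexus markers, with Ttr, to 134 and 276 CPM. Of the choroid plexus markers 2 were measured, with Ttr past the fold upward and Htr2c past it downward. Of all measured genes 3.7% were past the fold upward and 0.825% downward. None of these lists had a marker at 0 in both libraries, and the part of this RNA in the results was not tested. Interferon and MHC genes were mostly too low to measure, with 3 of 30 past the limit, and all 3 were higher. Nuclear long non-coding RNAs were lower in 9 of 10, with a median log2 ratio of -0.19. Over all measured genes 55.7% were higher and the median was 0.03.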

How the data were processed

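Nuclei of 2 libraries, each of pooled hippocampi of 3 mice, were read on a 10x Genomics 3′ assay. The authors deposited raw UMI counts per gene and barcode as 1 matrix per library. Cell Ranger 4.0, Seurat 4.4.0 and mm10 are named per the submitters' processing notes, while the matrix header, per the file headers, names Cell Ranger 8.0.1; how the deposited barcodes were filtered is not given in the sources used here. All 32285 genes and 39861 barcodes were used, with no further filter on cells. No doublet caller was run; leaving out nuclei over 2 times the median UMIs was an alternative.

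Members and gene lists were chosen with earlier results of these data known. Raw counts were summed over members per library and divided by their total (CPM, which sums to 1000000). Intervals are exact at 95% (Poisson for sums, Clopper-Pearson for shares, conditional binomial for ratios). A gene was measured with 100 or more UMIs over both libraries and unused by the rule, and past the fold at 1.5-fold either way. Genes named were the 12 highest and 12 lowest ratios at 200 or more UMIs (without predicted, mitochondrial, ribosomal, haemoglobin and sex-linked genes), Mapt, the markers, the identity list, up to 4 members of each other list with the largest ratio either way, and the 12 most variable genes. Bcan, Chordc1, Cox5a, Cspg5, Erbb4, Grin2b, Hsph1, Lama4, Mbp, Notch1, Ppfibp1, Psap, Stip1, Stk32a and Traf4 were named after their values were seen. Thinning drew 1600 UMIs per nucleus without replacement, a depth that no member missed. Spans came from GENCODE vM21, matched for 6422 of 6424 genes. The interval of a ratio was tested on counts simulated as Poisson, without spread between nuclei. That is the model the interval assumes, so the test does not cover genes that vary between nuclei beyond counting. Python 3.11.15, numpy 2.4.6, scipy 1.17.1, pandas 2.3.3 and matplotlib 3.10.9 were used. Some results on single genes are not reported here.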

Additional observations from a re-analysis of the deposited data

Results flagged for a closer look

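Gm32647, a predicted gene on chromosome 7 (94042691 to 94709171, mm10), lay on opposite sides in precursors and in mature oligodendrocytes. In precursors it stood at 46.0 CPM in AAV-STOP and 16.2 CPM in AAV-TAU, a log2 ratio of -1.50. In mature oligodendrocytes it stood at 21.2 and 93.5 CPM, a log2 ratio of 2.14. The difference between the cell classes was not tested, since there was 1 library per group. In precursors 10 nuclei held 91.2% and 89.3% of its UMIs, and in the nuclei with 5 or more marker UMIs per 1000 its levels were 4.13 and 5.42 CPM.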

How the results depend on the processing

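With 1 library per group, no value here carries the spread between mice. The ratio of shares was 0.797 with nuclei of at most 1 Rbfox3 UMI as the denominator. The number of genes measured changed with the setting, so counts past the fold are given with it. In the main setting 238 of 6424 were higher in AAV-TAU and 53 lower. The number higher was 114 of 3137 with 0 UMIs allowed of the excluding genes and 115 of 3305 with nuclei thinned to 1600 UMIs. It was 547 of 9114 at 50 or more UMIs per gene and 27 of 1777 at 400 or more. The number lower was 33 of 6424 with a pseudocount of 5 CPM. It was 169 of 9114 at 50 or more UMIs and 7 of 1777 at 400 or more. Among genes past the fold, 81.8% were higher, 62.3% with 0 UMIs of the excluding genes and 72.8% after thinning. The median log2 ratio of NMDA and metabotropic receptors was -0.34 with 0 UMIs of the excluding genes and -0.017 without the deepest nuclei, that of long non-coding RNAs -0.39 and that of microglial markers -0.15 (1 gene) with 0 UMIs of the excluding genes. Of the named genes, the log2 ratio changed sign for Cntn5 (0.10) and Grm8 (0.15) without the deepest nuclei, for Grm8 (0.098) and Htr2c (0.098) at 5 or more marker UMIs per 1000 (an alternative chosen after seeing the data), for Htr2c (0.24) and Glis3 (0.0049) with 0 UMIs of the excluding genes, and for Stat2 (-0.12) after thinning. The cause of these shifts was not tested. Scaling by the median of ratios moved all genes by 0.0037. No paired analysis was possible because each group is 1 pooled library.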
